A study of Danio rerio with 45 samples.

Results

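At 5 hours post fertilization (hpf), zebrafish blastula explants that had received 10 pg of ndr2 mRNA were set directly against explants that had received 2 pg. The members were the 6 libraries whose titles give these doses and this age without cycloheximide, 3 per dose, out of 45 libraries in the series, and no control library entered the comparison. Explants came from the animal pole of AB-strain embryos in which ndr2 mRNA had been placed in 1 animal-pole cell at the 128-cell stage, so each library mixed the descendants of that cell with cells that received no mRNA. Explants with 6 pg (n = 3), explants left uninjected (control, n = 3, with no mock injection named in the labels) and the 10 pg and 2 pg groups of 4 and 6 hpf were used beside them. Nothing in the labels says whether libraries of a group came from separate clutches or injections. The p-values therefore speak only of the spread among libraries within groups, and that spread may be technical. The fit estimated it from 43 libraries of all 15 groups of the series, those with cycloheximide included.

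ndr2 encodes Cyclops, a secreted Nodal ligand of the TGF-beta family. Nodal ligands bind activin receptors together with the co-receptor Tdgf1 (One-eyed pinhead), and the receptors activate Smad2, which acts on genes with DNA-binding partners such as Foxh1 and Mixl1. In the early fish embryo this pathway specifies mesoderm and endoderm, induces its own ligand genes, and induces the Lefty inhibitors that restrain it. Cells at the embryonic margin that receive more Nodal become endoderm and prechordal plate, and cells that receive less become other mesoderm.

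The comparison of 10 pg with 2 pg asked which transcripts differ with the amount of injected ligand mRNA. The secreted Wnt antagonist gene dkk1b, the Lefty genes lft1 and lft2, the organizer gene GSC, the Nodal ligand genes ndr1 and ndr2, the mesendoderm factors mixl1, sebox, OSR1, GATA5 and lhx1a, and the Fgf ligand genes FGF3 and FGF4 were higher with 10 pg. PFKFB3 and RASGEF1B also rose, RPL38 and hnrnpa1a fell, and the 16 rises counted here include 1 gene that is not named. The words rose and fell are kept for genes to which the edgeR quasi-likelihood test gave a Benjamini-Hochberg adjusted p below 0.05 over the 21075 genes tested. The 16 rises were 0.0759% of these genes and the 2 falls 0.00949%, or 0.0854% in either direction. Without adjustment, p was below 0.05 for 945 higher and 835 lower genes, and the median log2 difference of all genes was 0.01. Errors of log2 differences, here and in the figures, are approximate standard errors. Each is the absolute difference divided by the square root of its quasi-likelihood F, and is rough where a group holds few counts. Levels are CPM, counts scaled by the effective size of each library.

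**Figure D1:**
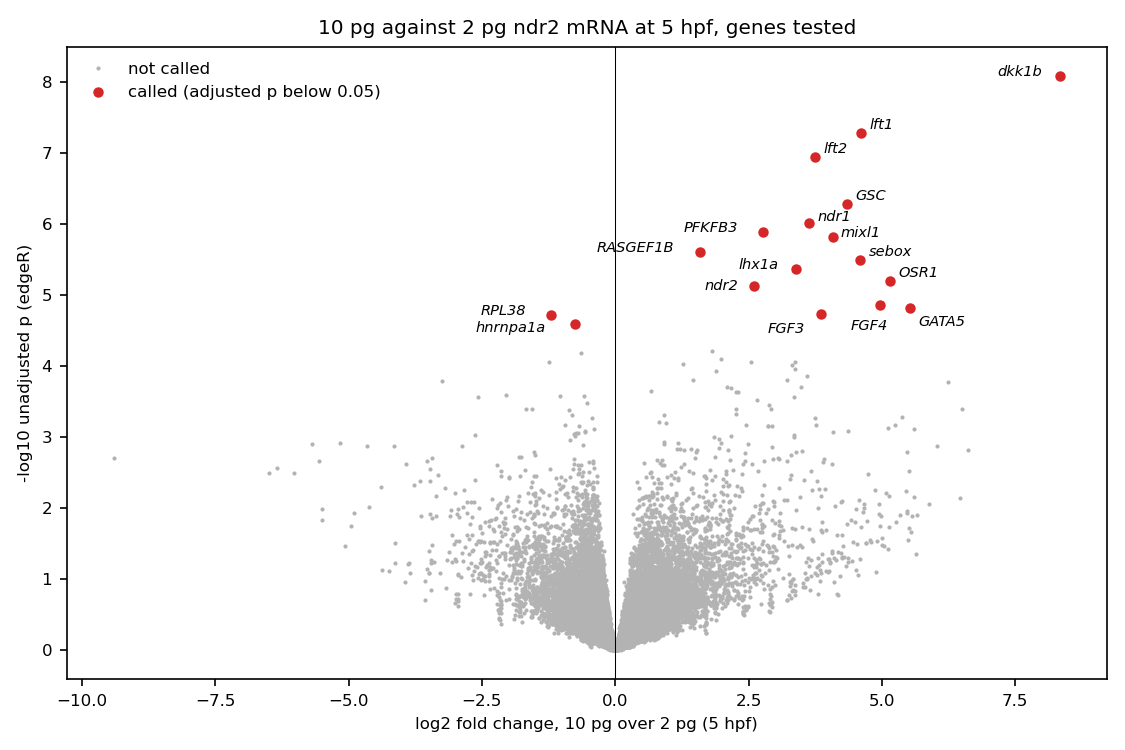
Log2 fold change of 10 pg over 2 pg at 5 hpf (horizontal axis) against the unadjusted edgeR p on a -log10 scale (vertical axis), with 1 point per gene for 21074 genes. The 15 named genes that rose and the 2 that fell are in red, and dkk1b stands farthest to the upper right at 8.33.

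The number of calls depended on the libraries that shared the fit and on single libraries. The fit of the 6 libraries alone called 23 genes higher and 3 lower, with 14 and 1 of the genes above among them, and the fit of the 15 libraries of 5 hpf called 0 and 0 (edgeR, with unadjusted p below 0.05 in 647 higher and 470 lower genes). All 18 were among the 57 higher and 17 lower genes of DESeq2. The count of rises was 5 without 10 pg replicate 1, 3 without 2 pg replicate 1, 6 without 2 pg replicate 2 and 3 without 2 pg replicate 3, and dkk1b, lft1 and lft2 were called in 15 of the 16 alternatives tried, missing only in the fit of 5 hpf libraries.

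Library totals were 23450690 to 28551066 counts with 10 pg and 16535971 to 20810167 with 2 pg and did not overlap. Nor did the scaling factors, which were 0.956 to 1.05 with 10 pg and 0.862 to 0.898 with 2 pg. The position along the control time course, scored as the mean log2 CPM of 500 genes that rise with age minus that of 500 that fall, was 1.38, 3.23 and 1.96 with 10 pg and 3.75, 2.43 and 2.55 with 2 pg. These ranges overlap, and with the position as a covariate 30 genes were called higher and 4 lower, all 18 among them. The pluripotency factor gene pou5f3 stood at 2156 to 2579 CPM with 10 pg and 2495 to 2961 CPM with 2 pg, and nanog at 854 to 1223 CPM with 10 pg and 930.2 to 1371 CPM with 2 pg, so defining transcripts of blastula cells were present at both doses.

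The injected gene came first as a check of the labels. ndr2 (ENSDARG00000101279) had 20.2, 16.2 and 11.6 CPM in the 10 pg libraries, against 1.68, 3.37 and 2.81 CPM in the 2 pg libraries. Every 10 pg library lay above every 2 pg library, as in 7.63% of all genes. The log2 difference was 2.61 ± 0.49 (6.09-fold, adjusted p = 0.0119), beside a nominal 5-fold difference in dose, or 2.32 log2 units. At 4 hpf the ndr2 means were 128 CPM with 10 pg (2 libraries) and 6.90 CPM with 2 pg, further apart than the nominal doses. Injected and endogenous ndr2 transcripts cannot be told apart in these counts. Of the other 15 genes that rose, 14 had a larger log2 difference than ndr2, and RASGEF1B had a smaller one.

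The Nodal inhibitors were among the genes with the smallest p. lft1 (ENSDARG00000019920), which encodes a secreted Lefty that blocks Nodal ligands, had 28.7, 17.2 and 11.4 CPM with 10 pg, against 0.421, 1.44 and 0.421 CPM with 2 pg. It rose by 4.60 ± 0.66 log2 units (adjusted p = 0.000551). Its paralog lft2 (ENSDARG00000044059) had 19.9, 14.2 and 9.42 CPM with 10 pg, against 1.32, 1.18 and 0.701 CPM with 2 pg, and rose by 3.75 ± 0.56 (adjusted p = 0.000785). In both genes the lowest 10 pg library was several-fold above the highest 2 pg library, and replicate 1 was the highest of the 10 pg libraries.

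The second Nodal ligand gene, ndr1 (squint, ENSDARG00000057096), was not injected. It had 15.7, 9.14 and 5.71 CPM with 10 pg, against 0.301, 1.28 and 0.842 CPM with 2 pg, and rose by 3.64 ± 0.61 (adjusted p = 0.00408). The groups did not overlap, and the 10 pg libraries came in the same order as for ndr2. gdf3, whose product forms dimers with Nodal ligands, had a log2 difference of -0.27 (adjusted p = 0.774). Among 6 tested Nodal ligands and antagonists, 4 rose, the injected ndr2 among them, beside 0.0759% of all genes, and 0 fell. The median log2 difference was 3.12, with ndr2 included. The receptor and transducer list had 9 tested members with a median of 0.27, of which 8 were not called and mixl1 rose. There the co-receptor gene tdgf1 differed by 0.37 ± 0.27, foxh1 by -0.30 ± 0.21 and the receptor gene ACVR2A by 0.40 ± 0.23. Of 17 entries 9 matched a gene, and the receptor entries acvr1ba and acvr1bb did not. Different genes carry their base symbol ACVR1B, so the values are uncertain. ENSDARG00000018968 averaged 339 CPM with 10 pg and 214 CPM with 2 pg. edgeR did not call it, and DESeq2 did (0.66, adjusted p = 0.0297). ENSDARG00000052142 averaged 111 CPM with 10 pg and 102 CPM with 2 pg.

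**Figure D2:**
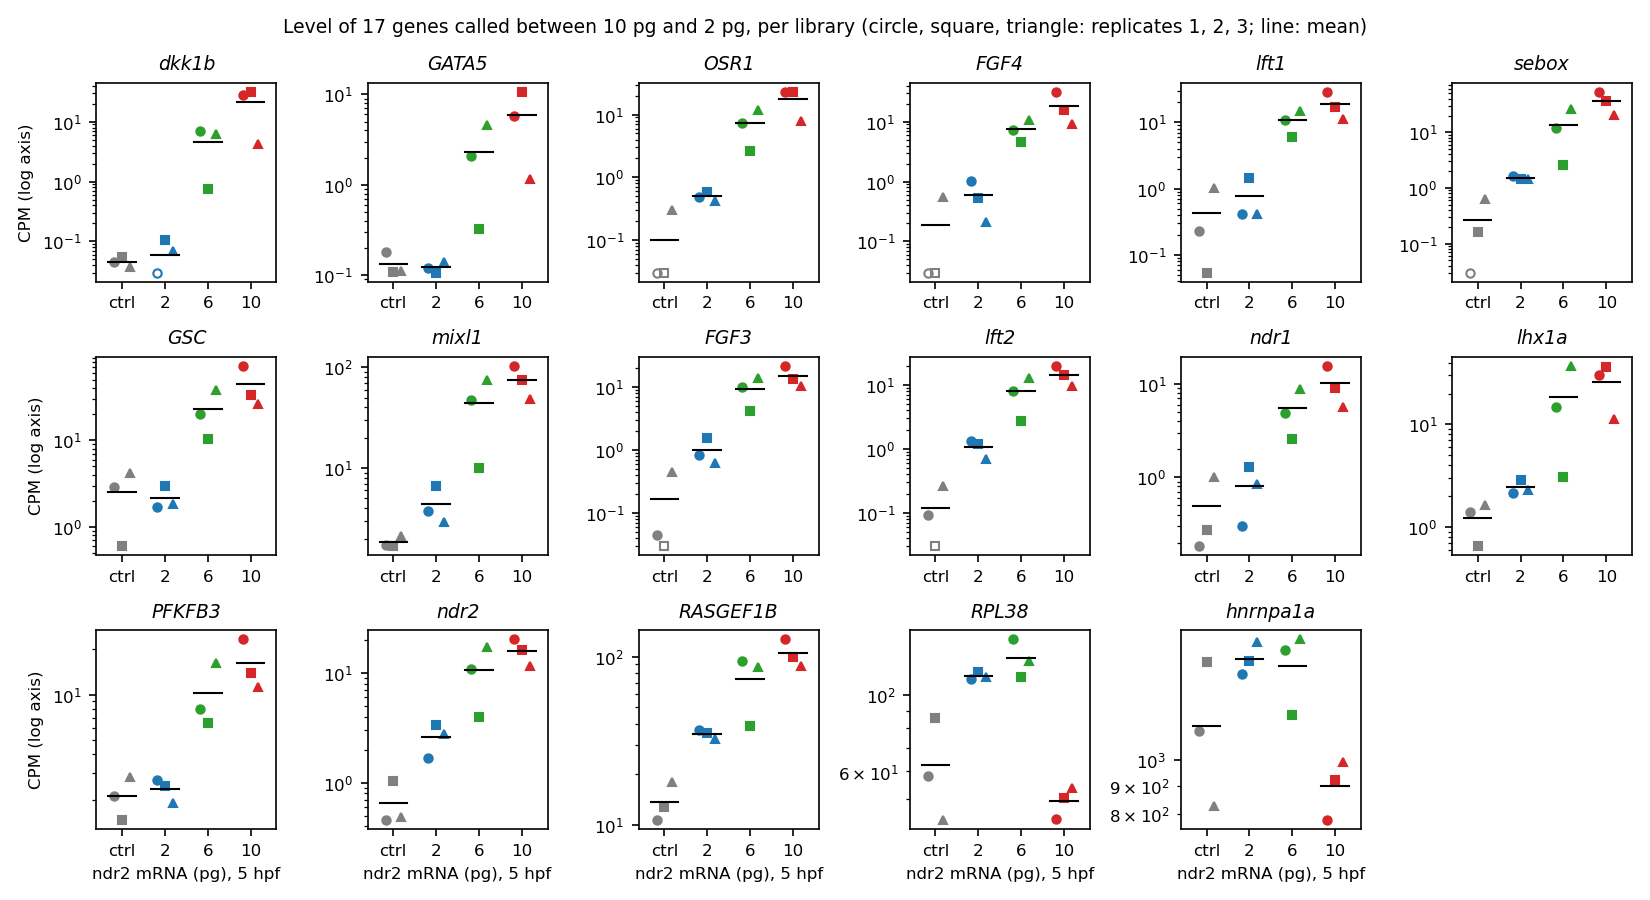
Level of 17 of the 18 called genes in CPM (vertical log axis, a separate scale for each gene) in uninjected explants (ctrl) and with 2, 6 and 10 pg of ndr2 mRNA at 5 hpf. Circles, squares and triangles are replicates 1, 2 and 3, black lines are means of 3 libraries, and open symbols mark 0, drawn at the bottom of the panel. In the 15 genes drawn that rose, every 10 pg library lies above every 2 pg library, as in 7.63% of all genes. The choice of these genes by the same libraries largely sets that separation. Their 6 pg libraries reach into the range of the 10 pg libraries.

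Of 13 tested endoderm genes, 4 rose, beside 0.0759% of all genes, 0 fell and 9 were not called. The median log2 difference was 3.59. mixl1 (ENSDARG00000069252), a homeobox gene that Nodal induces and whose product acts with Smad2, had 104, 74.5 and 48.3 CPM with 10 pg, against 3.79, 6.64 and 2.95 CPM with 2 pg. It rose by 4.07 ± 0.69 (adjusted p = 0.00457). sebox (ENSDARG00000042526), the paired-type homeobox gene also known as mezzo, had 53.03, 36.2 and 20.5 CPM with 10 pg, against 1.62, 1.44 and 1.47 CPM with 2 pg, and rose by 4.59 ± 0.82 (adjusted p = 0.00757). The 3 libraries with 2 pg differed little from each other for sebox, while the 10 pg libraries spread more than 2-fold.

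OSR1 (ENSDARG00000014091), a zinc-finger factor of endoderm and intermediate mesoderm, had 22.9, 23.0 and 7.81 CPM with 10 pg, against 0.481, 0.589 and 0.421 CPM with 2 pg, and rose by 5.14 ± 0.96 (adjusted p = 0.011). GATA5 (ENSDARG00000017821), a zinc-finger factor needed for endoderm and heart, had 5.81, 10.6 and 1.16 CPM with 10 pg, against 0.120, 0.107 and 0.140 CPM with 2 pg. Its log2 difference was 5.53 ± 1.09 (adjusted p = 0.021) but rests on 6 counts over the 3 libraries with 2 pg, against 471 with 10 pg, a ratio of 50.0 with a 95% counting interval of 22.8 to 137. Replicate 3 was the lowest 10 pg library for both genes and still lay above all 2 pg libraries.

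Other members of the endoderm list had large differences without a call. Of the 13 differences 12 were positive, and the 1 negative was foxa1 (-2.95, adjusted p = 0.715). The forkhead genes foxa3 and FOXA2, which act in endoderm and axial mesoderm, differed by 3.36 ± 0.76 (adjusted p = 0.0862) and 3.21 ± 0.75 (adjusted p = 0.105), and GATA6 by 3.59 ± 0.83 (adjusted p = 0.0994). foxa3 had 214, 107 and 118 CPM with 10 pg, against 12.6, 20.1 and 9.89 CPM with 2 pg. sox32, the Sox gene at the head of the zebrafish endoderm programme, had 2.34, 1.06 and 0.312 CPM with 10 pg, against 0.0601, 0 and 0 CPM with 2 pg, and its adjusted p was 0.225. In all 4 the groups did not overlap, which naming them for large differences favours. Every 10 pg library lay above every 2 pg library in 9 of the 13 list members, beside 7.63% of all genes. DESeq2 called these 4 genes (adjusted p = 0.0107 for foxa3, 0.00313 for FOXA2, 0.00302 for GATA6 and 0.0337 for sox32).

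Of 10 tested prechordal plate genes, 3 rose, beside 0.0759% of all genes, 0 fell and 7 were not called. The median log2 difference was 2.86. dkk1b (ENSDARG00000045219), which encodes the secreted Wnt antagonist Dickkopf of the organizer and prechordal plate, had the largest log2 difference of the called genes. Its level was 28.2, 31.3 and 4.24 CPM with 10 pg, against 0, 0.107 and 0.0701 CPM with 2 pg. Replicates 1 and 2 of the 10 pg group stood several-fold above replicate 3, and the 2 pg libraries held 0, 2 and 1 counts. The fitted log2 difference was 8.33 ± 1.09 (adjusted p = 0.000171), and the ratio of summed counts was 369, with a 95% counting interval of 126 to 1792. Counting intervals cover counting error only.

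GSC (goosecoid, ENSDARG00000059073), a homeobox repressor that marks the organizer, had 73.0, 33.9 and 26.2 CPM with 10 pg, against 1.68, 2.997 and 1.82 CPM with 2 pg. It rose by 4.34 ± 0.69 (adjusted p = 0.00272). lhx1a (ENSDARG00000014018), a LIM homeobox gene of the organizer, had 30.6, 36.0 and 11.2 CPM with 10 pg, against 2.16, 2.89 and 2.31 CPM with 2 pg, and rose by 3.40 ± 0.62 (adjusted p = 0.00903). The groups were separate for both, and the order of the 10 pg libraries differed between them. In the same list the secreted Wnt antagonist gene frzb differed by 2.50 ± 0.98 (adjusted p = 0.501). Of the 10 differences 7 were positive. The 2 negative ones were OTX2 (-1.32, adjusted p = 0.675) and klf17 (-0.60, adjusted p = 0.624). Every 10 pg library lay above every 2 pg library in 6 members, beside 7.63% of all genes, and below in 2, beside 9.77%. hhex, ctslb and he1.1 had 0 counts in all 6 libraries.

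PFKFB3 (ENSDARG00000001953), a regulator of glycolysis, had 23.3, 13.9 and 11.2 CPM with 10 pg, against 2.70, 2.46 and 1.89 CPM with 2 pg, and rose by 2.77 ± 0.47 (adjusted p = 0.00454). RASGEF1B (ENSDARG00000033614) encodes a guanine nucleotide exchange factor for Ras-family proteins. Its symbol is carried by another gene in the table, so reads could be split between paralogs and its value is uncertain. It had 126, 99.4 and 88.3 CPM with 10 pg, against 36.7, 34.9 and 32.3 CPM with 2 pg, and rose by 1.60 ± 0.28 (adjusted p = 0.00643), the smallest rise but with tight libraries in both groups.

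Among 16 tested Fgf ligands and targets, 2 rose, beside 0.0759% of all genes, 0 fell and 14 were not called. Of the 16 log2 differences 14 were above 0, with a median of 0.70. FGF4 (ENSDARG00000105230) had 31.4, 15.5 and 9.10 CPM with 10 pg, against 1.02, 0.535 and 0.210 CPM with 2 pg, and rose by 4.96 ± 0.97 (adjusted p = 0.0205). FGF3 (ENSDARG00000101540) had 21.5, 13.2 and 10.1 CPM with 10 pg, against 0.841, 1.55 and 0.631 CPM with 2 pg, and rose by 3.86 ± 0.77 (adjusted p = 0.0235). Both encode secreted Fgf ligands of the early margin, and both had separate groups. The ligand genes fgf17 and fgf24 differed by 1.94 ± 0.56 (adjusted p = 0.296) and 1.52 ± 0.55 (adjusted p = 0.465), and the feedback phosphatase gene DUSP4 by 1.53 ± 0.44 (adjusted p = 0.296). The entries fgf8a and fgf8b matched no single gene, so FGF8 is outside these counts. A gene with that symbol (ENSDARG00000003399) averaged 24.7 CPM with 10 pg and 3.90 CPM with 2 pg. edgeR did not call it in the main fit, and DESeq2 did (2.67, adjusted p = 0.00887).

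The notochord and axial mesoderm list had 0 calls of 10 in edgeR. Its median was 0.86, with 6 positive and 4 negative differences. Its summed level was nevertheless separate, at 580 to 917 CPM with 10 pg and 152 to 214 CPM with 2 pg. Much of that sum came from few members, since chrd averaged 276 CPM, tbxta 172 CPM and noto 155 CPM with 10 pg. tbxta, the T-box gene of notochord and tail mesoderm, had 209, 203 and 106 CPM with 10 pg, against 20.5, 14.7 and 10.9 CPM with 2 pg. Its log2 difference was 3.49 ± 0.83 (adjusted p = 0.119), and DESeq2 called it (adjusted p = 0.0107). chrd, the Bmp antagonist Chordin, had 351, 244 and 233 CPM with 10 pg, against 52.3, 58.6 and 35.8 CPM with 2 pg, with a difference of 2.50 ± 0.70 (adjusted p = 0.281), and DESeq2 called it too (adjusted p = 0.0337). The homeobox gene noto of the notochord differed by 1.36 ± 0.62 (adjusted p = 0.572).

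Ventrolateral and paraxial mesoderm genes had 0 calls of 17 and a median of 0.62, which was -0.06 in the fit of 5 hpf libraries. Of the 17 differences 10 were positive and 7 negative, among them ved (-0.86, adjusted p = 0.753). Every 10 pg library lay above every 2 pg library in 3 members, beside 7.63% of all genes. In 4 members every 10 pg library lay below, beside 9.77%. pcdh8, a protocadherin of paraxial mesoderm, had 43.1, 50.8 and 33.8 CPM with 10 pg, against 4.33, 6.05 and 2.31 CPM with 2 pg, and an adjusted p of 0.0779 (0.00145 in DESeq2). Of 14 Wnt ligands, antagonists and targets, dkk1b rose and 13 were not called, with a median of 1.03. There wnt11f2, a ligand that guides gastrulation movements, differed by 2.26 ± 0.58 (adjusted p = 0.183, and 0.0162 in DESeq2) with separate groups. Cell movement and adhesion genes had 0 calls of 19 and a median of -0.01. Within them arl4ab, a small GTPase gene, had 40.1, 36.2 and 21.6 CPM with 10 pg, against 2.88, 3.37 and 3.23 CPM with 2 pg (adjusted p = 0.0774, and 0.000355 in DESeq2), and snai1b, a zinc-finger repressor of epithelial genes, had 4.38, 9.57 and 10.5 CPM with 10 pg, against 28.3, 36.7 and 44.0 CPM with 2 pg (adjusted p = 0.465).

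**Figure D3:**
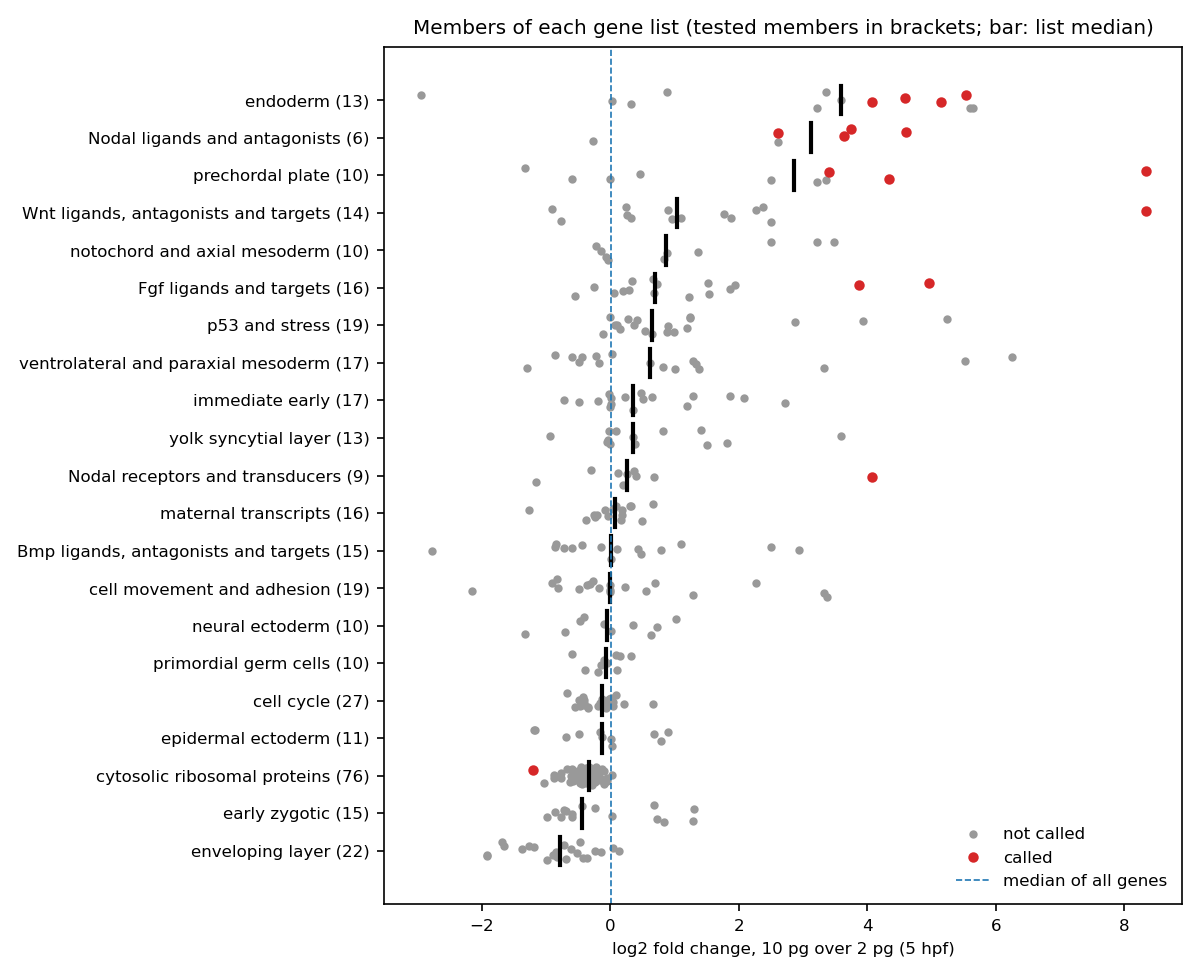
Log2 fold change of 10 pg over 2 pg at 5 hpf (horizontal axis) for each tested member of 20 gene lists and of the cytosolic ribosomal protein genes, with the number of tested members in brackets. Black bars are list medians, the dashed line is the median of all genes at 0.01, and red points are the called genes, which sit in the endoderm, Nodal, prechordal plate, Wnt, Fgf and ribosomal rows.

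Lists of ectoderm and of Bmp signalling had medians near that of all genes. Bmp ligands, antagonists and targets had 0 calls of 15 and a median of 0.01, epidermal ectoderm 0 of 11 and -0.13, and neural ectoderm 0 of 10 and -0.05. Primordial germ cell genes (0 calls of 10, median -0.07) and maternal transcripts (0 of 16, median 0.07) did likewise. Early zygotic genes had 0 calls of 15 and a median of -0.45, immediate early genes 0 of 17 and 0.36, and cell cycle genes 0 of 27 and -0.12. With library totals in place of scaling factors the median of all genes moved to 0.18, and the medians of the epidermal, neural, germ cell, cell cycle and cell movement lists were then above 0 and below that of all genes. With the age position as a covariate the medians were 0.39 for Bmp, 0.27 for epidermal, 0.09 for neural, 0.13 for cell movement, -0.17 for maternal and -0.10 for early zygotic genes. The position is scored on genes that change with age in controls, which may include members of these lists.

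The enveloping layer is the flat outer epithelium of the blastula. Of 22 tested markers of it 0 were called, 20 had a negative log2 difference, and the median was -0.78. Their summed level was 8475 to 15586 CPM with 10 pg and 17179 to 18884 CPM with 2 pg, without overlap, and 10 of 22 were lower in every 10 pg library than in every 2 pg library, beside 9.77% of all genes. The keratin gene krt5 had 160, 778 and 555 CPM with 10 pg, against 1960, 1780 and 1895 CPM with 2 pg (log2 difference -1.92 ± 0.81, adjusted p = 0.538). With the position along the time course as a covariate the list median was -0.34. That position is scored on genes that rise or fall with age in controls. krt5 averaged 1.11 CPM at 4 hpf and 3040 CPM at 6 hpf in uninjected explants. The covariate may thus hold members of this list, so the smaller median cannot be read as an adjustment for age alone. In uninjected explants the sum ran from 6128 to 29079 CPM, a range that holds both doses. None of the 24 matched markers was at 0 in all 6 libraries. In bulk RNA fewer cells of a type and less RNA per cell cannot be told apart, and the part of these transcripts in the other differences was not tested.

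Yolk syncytial layer markers summed to 2095 to 2497 CPM with 10 pg and 2299 to 2491 CPM with 2 pg, which overlap, with 0 calls of 13 and none of 14 matched markers at 0 in all libraries. Their median log2 difference was 0.35, with 8 positive and 5 negative. In 4 of the 13 every 10 pg library lay above every 2 pg library, beside 7.63% of all genes. In 0 of them did every 10 pg library lie below, beside 9.77%. A sum is set mostly by its most abundant members. Stress and p53 target genes had 0 calls of 19, 17 positive differences and a median of 0.65. Replicate 1 stood out within the 10 pg group there. The heat shock gene hsp70l had 42.0, 0.118 and 2.05 CPM with 10 pg, against 0.301, 0.428 and 0.421 CPM with 2 pg (adjusted p = 0.215), and the p53-induced death gene bbc3 had 128, 23.2 and 11.5 CPM with 10 pg, against 7.45, 8.99 and 5.82 CPM with 2 pg (adjusted p = 0.215). DESeq2 called both genes higher (adjusted p = 0.00887 for hsp70l and 0.0107 for bbc3). The same library was the highest of the 10 pg libraries in 11 of the 15 genes that rose other than ndr2. The part of these stress transcripts in the rises was not tested. Without replicate 1 of 10 pg, 5 of the 16 rises were still called, namely dkk1b, lft1, lft2, GSC and mixl1. The other rises were lost, and 0 of the 2 falls were called.

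The 2 genes that fell had smaller differences than the 16 that rose. RPL38 (ENSDARG00000006413), a protein of the large ribosomal subunit, had 43.7, 50.3 and 53.8 CPM with 10 pg, against 111, 116 and 112 CPM with 2 pg, and fell by 1.20 ± 0.24 log2 units (adjusted p = 0.0235). hnrnpa1a (ENSDARG00000011020), an RNA-binding protein of splicing, had 782, 922 and 989 CPM with 10 pg, against 1419, 1497 and 1620 CPM with 2 pg, and fell by 0.75 ± 0.15 (adjusted p = 0.0298). Each was called in 6 of 16 alternatives, and in none of the fits that left out 1 of the 10 pg or 2 pg libraries. In uninjected explants RPL38 had 58.3, 85.8 and 43.4 CPM and hnrnpa1a 1124, 1495 and 829 CPM, so for RPL38 the 10 pg libraries lay within the control range and the 2 pg libraries above it. For hnrnpa1a 1 of the 10 pg libraries lay below the control range and 2 of the 2 pg libraries above it.

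RPL38 was compared with the 76 cytosolic ribosomal protein genes, a list drawn up after its value was seen. Of these, 75 had a negative log2 difference, RPL38 was called and 75 were not (DESeq2 also called RPS29, at -1.04 with an adjusted p of 0.0449), and the median was -0.34 (-0.17 with library totals, where the median of all genes was 0.18). In 55 of 76 every 10 pg library lay below every 2 pg library, beside 9.77% of all genes. The list summed to 14034 to 16657 CPM with 10 pg and 18831 to 20519 CPM with 2 pg, and to 13778 to 26751 CPM in uninjected explants. The list differed by 0.09 in the median between 6 pg and 2 pg and by -0.43 between 10 pg and 6 pg. By unadjusted p the next genes after those called were NRIP1, a nuclear receptor corepressor (1.81 ± 0.40, adjusted p = 0.0676), and HNRNPA1L2, an hnrnpa1-like gene (-0.64 ± 0.14, adjusted p = 0.0691).

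The 6 pg explants of the same age show where the rise lay between the doses. They carried no weight in the comparison that chose the genes, but they were in the same fit and entered its estimate of spread. In addition, 6 pg against 2 pg shares the 2 pg libraries with the main comparison and 10 pg against 6 pg shares the 10 pg libraries. Between 6 pg and 2 pg, 2 genes rose (0.00949% of genes) and 0 fell, namely lft1 by 3.77 ± 0.64 (adjusted p = 0.0236) and dkk1b by 6.14 ± 1.08 (adjusted p = 0.0236). Without adjustment, 503 higher and 377 lower genes had p below 0.05. Between 10 pg and 6 pg edgeR called 0 genes in either direction, with unadjusted p below 0.05 in 665 higher and 729 lower genes, and 0 and 11 genes were called in DESeq2.

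For lft1 the 6 pg libraries had 10.98, 6.06 and 15.1 CPM, for GSC 20.4, 10.3 and 38.7 CPM, for mixl1 47.0, 10.0 and 75.4 CPM, and for ndr2 itself 10.8, 3.95 and 17.2 CPM. In the 15 genes that rose other than ndr2, every 6 pg library lay above every 2 pg library, as in 5.53% of all genes. These genes were chosen with the same 2 pg libraries, which favours that separation. In 0 of them did every 10 pg library lie above every 6 pg library, as in 6.53% of all genes. Replicate 3 was the highest 6 pg library in 13 of the 15 and replicate 2 the lowest in 15, and replicate 3 of 6 pg lay above replicate 3 of 10 pg in 13. ndr2 had the same order within the 6 pg libraries.

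The 6 pg mean lay between the means of the other doses in all 15 genes. The log2 step between 6 pg and 2 pg was larger than that between 10 pg and 6 pg in all 15, at 1.08 to 6.14 and 0.50 to 2.19 log2 units. The 6 pg explants had reached 67.8% to 85.3% of the log2 difference between 10 pg and 2 pg, with a median of 76.4%, while ndr2 had reached 77.5% and the nominal log2 dose 68.3%. RASGEF1B was at the low end and lhx1a at the high end of that range. RPL38 and hnrnpa1a did not follow this order, since their 6 pg libraries (144, 113 and 125 CPM, and 1565, 1203 and 1637 CPM) lay at the level of 2 pg or above it in all but 1 library.

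**Figure D4:**
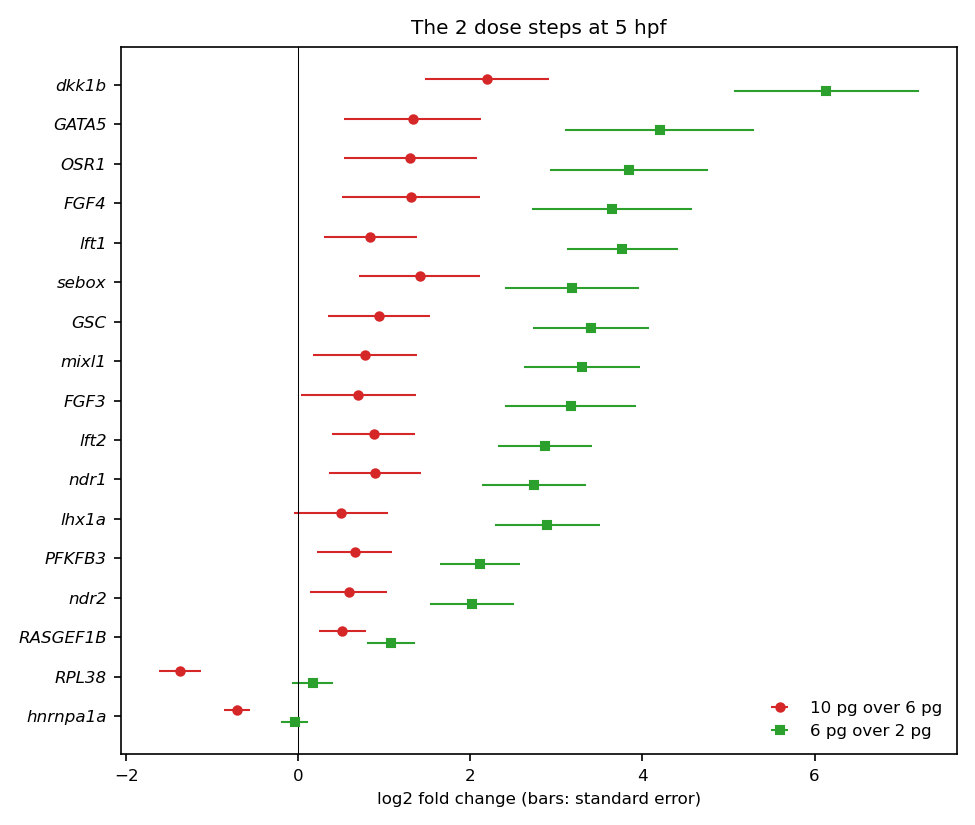
Log2 fold change of 10 pg over 6 pg (red circles) and of 6 pg over 2 pg (green squares) at 5 hpf for 17 of the 18 called genes, with standard errors. In the 15 genes drawn that rose the lower step is the larger, and in RPL38 and hnrnpa1a the fall lies in the upper step. The lower step is also the larger in nominal dose, with 68.3% of the log2 difference between 10 pg and 2 pg.

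A test for a slope linear in log2 dose over the 3 doses called 16 genes higher (0.0759%), the same 16, and 1 lower (0.00474%), or 0.0807% in either direction. The slope test shares the 10 pg and 2 pg libraries with the comparison that chose the 16 genes. That choice largely sets this overlap, which is given as a description. Slopes per doubling of dose included 3.63 ± 0.49 for dkk1b (adjusted p = 0.00035), 2.04 ± 0.29 for lft1 (adjusted p = 0.000606), 1.15 ± 0.22 for ndr2 (adjusted p = 0.0127) and 0.69 ± 0.12 for RASGEF1B (adjusted p = 0.00723). The gene with a falling slope was sspo, which encodes SCO-spondin, a secreted matrix protein. It had 0.802, 0.549 and 0.580 CPM with 10 pg, against 13.7, 1.71 and 3.16 CPM with 2 pg, and its slope was -1.47 ± 0.31 (adjusted p = 0.0428). Replicate 1 of 2 pg held most of its counts there, and the slope test called 0 genes lower without that library and likewise without replicate 3 of 2 pg.

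Against uninjected explants, all 16 rising genes were called higher with 10 pg, beside 0.223% of genes, and 0 of them with 2 pg, where edgeR called 1 gene in all, fgf24 (4.04 log2 units higher, adjusted p = 0.0178). These comparisons share the control libraries with each other and the 10 pg and 2 pg libraries with the comparison that chose the genes, so the choice itself largely sets these counts, and the values are given side by side as a description. lft2 stood 6.74 ± 0.69 above control with 10 pg and 2.99 ± 0.73 with 2 pg (adjusted p = 0.538), sebox 6.98 ± 0.94 with 10 pg and 2.39 ± 0.89 with 2 pg (adjusted p = 0.936), and GSC 4.09 ± 0.67 with 10 pg and -0.25 ± 0.66 with 2 pg (adjusted p above 0.99). Of the 15 genes other than ndr2, 13 had a higher mean with 2 pg than in control, and in 8 every 2 pg library lay above every control library, as in 4.18% of all genes. dkk1b had 0.0457, 0.0541 and 0.0375 CPM in the control libraries, which its 2 pg libraries overlap.

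At 6 hpf the same doses were compared in other libraries. All 16 genes that rose at 5 hpf had a positive log2 difference there, beside 53.1% of all genes, and all 16 had every 10 pg library above every 2 pg library, beside 8.58%. All 16 differences were smaller at 6 hpf, which a choice of genes by their difference at 5 hpf favours, and 0 of the 16 were called, beside 0.0237% of all genes. lft1 had 19.2, 30.8 and 24.5 CPM with 10 pg, against 11.3, 10.6 and 3.04 CPM with 2 pg at 6 hpf, a difference of 1.58 ± 0.55 (adjusted p = 0.45). dkk1b had 28.1, 33.4 and 28.98 CPM with 10 pg, against 3.98, 2.07 and 1.01 CPM with 2 pg (3.68 ± 0.77, adjusted p = 0.0673). Its 10 pg libraries at 6 hpf stood at the level of the upper 10 pg libraries at 5 hpf, and its 2 pg libraries stood above all 2 pg libraries of 5 hpf.

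Whether the difference between doses itself changed between 5 and 6 hpf was tested as a contrast of differences. edgeR called 0 genes in either direction, with unadjusted p below 0.05 in 287 higher and 184 lower genes, and DESeq2 had 1 and 1. The change was -4.65 ± 1.33 log2 units for dkk1b and -3.02 ± 0.83 for lft1, both with an adjusted p above 0.99. The 5 genes called higher with 10 pg at 6 hpf, named here after their values were seen, were the forkhead gene foxa (2.25 ± 0.37, adjusted p = 0.012), the guidance ligand gene sema3aa, the protein disulfide isomerase gene P4HB, the nuclear envelope gene syne3 and ENSDARG00000093872. Their differences at 5 hpf were 0.89, 0.68, 0.22, 0.49 and 1.18 in that order, and they were not called there.

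**Figure D5:**
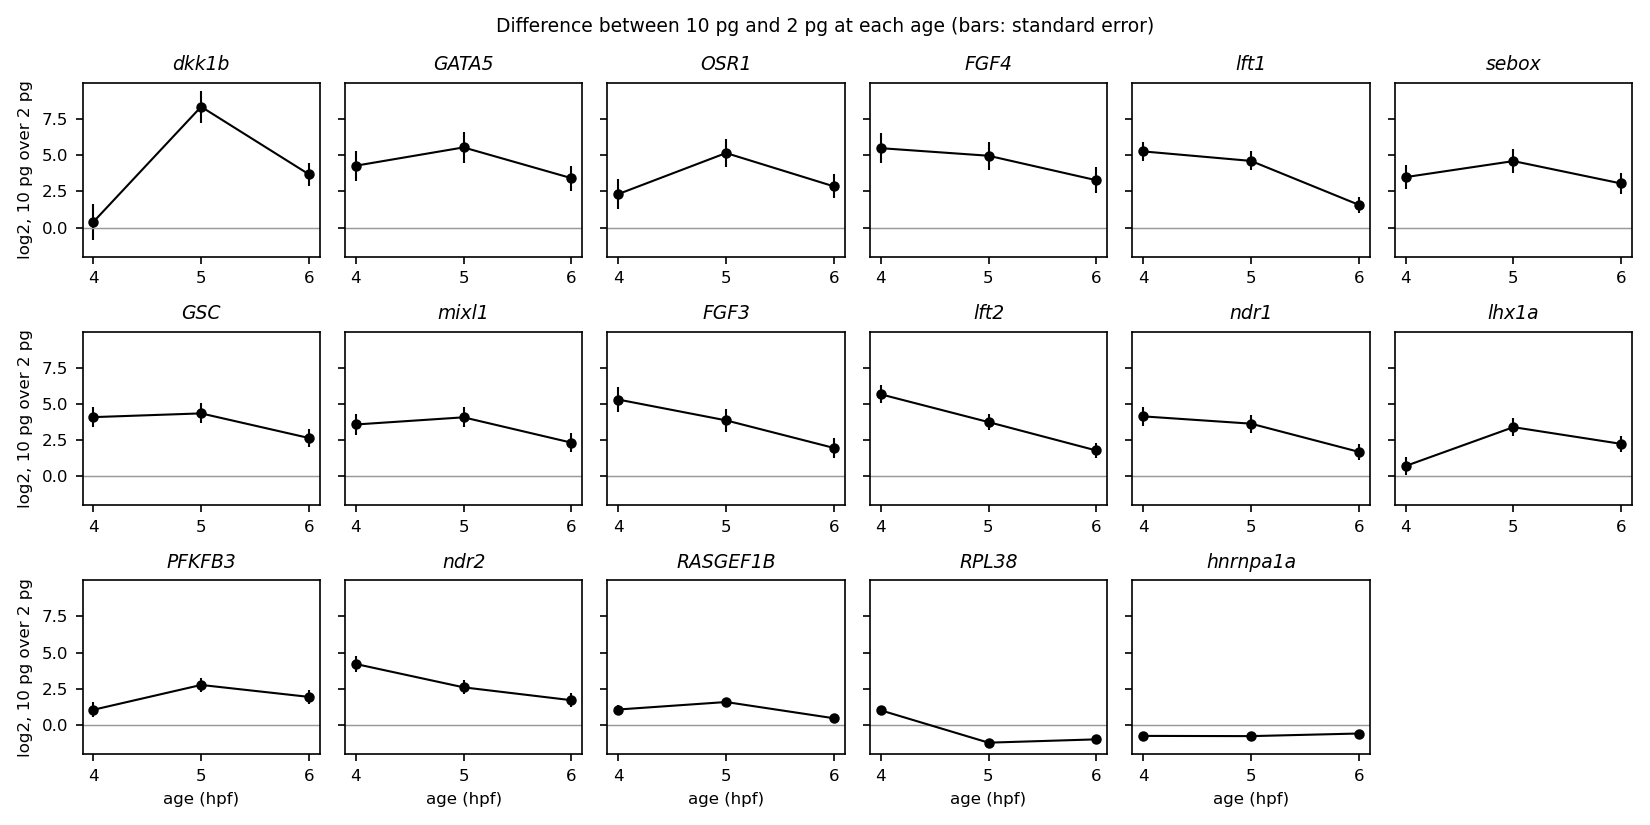
Log2 fold change of 10 pg over 2 pg (vertical axis) at 4, 5 and 6 hpf (horizontal axis) for 17 of the 18 called genes, with standard errors. The value at 4 hpf rests on 2 libraries with 10 pg, and dkk1b is near 0 at 4 hpf, 8.33 at 5 hpf and 3.68 at 6 hpf.

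At 4 hpf the 10 pg group had 2 usable libraries, because its replicate 3 equals a column of the group with cycloheximide, an inhibitor of translation, and both were left out of the fit. Of the 16 genes, 12 were called higher with 10 pg at 4 hpf, beside 10.6% of all genes. The 4 that were not called were dkk1b, PFKFB3, lhx1a and OSR1. At 4 hpf PFKFB3 averaged 3.88 CPM with 10 pg and 1.86 CPM with 2 pg, and OSR1 1.22 CPM with 10 pg and 0.242 CPM with 2 pg. ndr2 had 142 and 114 CPM with 10 pg, against 6.81, 7.05 and 6.86 CPM with 2 pg at 4 hpf, a log2 difference of 4.21 ± 0.53 (adjusted p = 1.16e-06). dkk1b had 0.0559 and 0.345 CPM with 10 pg, against 0.230, 0.127 and 0.0933 CPM with 2 pg, and lhx1a had 9.40 and 11.8 CPM with 10 pg, against 4.42, 10.3 and 4.57 CPM with 2 pg. dkk1b and lhx1a overlapped between doses at 4 hpf and were separate at 5 hpf. The signed difference between doses was higher at 5 than at 4 hpf for both by a test of that change. That test called the difference higher at 5 hpf in 6.01% of all genes, lower in 4.9% and either in 10.9%. The age position at 4 hpf was -4.61 and -4.34 with 10 pg and -1.70, -3.60 and -2.95 with 2 pg, so libraries of the doses also differed there along the control time course.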

How the data were processed

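The authors deposited a table of raw counts per Ensembl gene (31465 genes, 45 columns). STAR, featureCounts, DESeq2 and the GRCz11 build are named in the submitters' processing notes, without versions. The strand setting is not given in the sources used here, nor is the annotation release. Groups, doses and replicate numbers follow the sample titles, since the descriptions give different dose figures.

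Depth was 12137856 to 28551066 counts per library. At 4 hpf the 10 pg groups with and without cycloheximide hold the same column as their replicate 3, so both copies were left out and 43 libraries, those with cycloheximide included, were fitted together. The quasi-likelihood test of edgeR 4.0.16 (R 4.3.3) was run on TMM-scaled counts in its robust form. Each group had its own coefficient, which left 28 residual degrees of freedom. filterByExpr (minimum count 10, minimum total 15) kept 21075 genes. The Benjamini-Hochberg adjustment was made over these genes for each of 10 comparisons, with 0.05 as the threshold.

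The 20 gene lists held 373 entries, of which 300 matched a gene, 21 of them by base symbol with at least 500 counts. The members and lists were chosen with earlier results of these data known, so no list is independent support. Named genes are ndr2, genes called between the doses whose higher group averaged at least 1 CPM, the genes of smallest p up to 20, and in each list the called members and up to 4 others with the largest change. The rule also takes up to 5 genes in each direction for each change between ages and for the dose slope. Not all of these are printed, and 1 gene that rose is not reported here by name though it stays in the counts. The genes called at 6 hpf, fgf24 against control, the pluripotency genes and the ribosomal list were named after their values were seen. So were ACVR1B, FGF8, foxa1, klf17 and the prechordal plate genes without counts. Alternatives were RLE scaling, library totals, no count filter, DESeq2 1.42.0, other sets of libraries, a replicate block within each age, and leaving out each library. The age position as a covariate, the fit without the 4 hpf libraries of 2 pg and 6 pg, and leaving out single libraries of 6 pg or of 4 and 6 hpf were added after seeing the data. No sequences or coordinates are given, as none of the tables used holds them for this build.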

Additional observations from a re-analysis of the deposited data

Results flagged for a closer look

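The difference between 10 pg and 2 pg was not the same at 5 hpf as at 4 hpf by a test of the contrast of differences (edgeR). The signed log2 difference, 10 pg over 2 pg, was higher at 5 hpf in 1266 genes (6.01% of those tested) and lower in 1032 (4.9%). A higher value can also mean a negative difference at 4 hpf that shrank by 5 hpf, and a lower value a positive one that shrank. Without replicate 2 of 10 pg at 4 hpf, where 1 library stands for that group, the counts were 206 and 143. The 5 hpf side has 3 libraries per dose and the 4 hpf side 2 with 10 pg. Between the doses edgeR called 2227 genes higher and 2506 lower with 10 pg at 4 hpf (22.5% of genes), and 16 and 2 at 5 hpf. The calls of change therefore need not be dose differences that grew with age.

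Of the 18 genes called at 5 hpf, 3 passed that test. dkk1b gained 7.93 ± 1.74 log2 units between the ages (adjusted p = 0.00285) and lhx1a 2.67 ± 0.87 (adjusted p = 0.0435). RPL38 changed by -2.23 ± 0.36 (adjusted p = 0.000174), with 61.6 and 151 CPM with 10 pg, against 59.9, 48.8 and 47.8 CPM with 2 pg at 4 hpf. The 10 genes with the largest fitted changes in this test were not called between the doses at 5 hpf. For NPAS4 and POPDC2 the changes rest on groups at 0 and on single libraries. NPAS4 had 33, 1 and 2 counts with 10 pg, against 2, 1 and 0 with 2 pg at 5 hpf, and 0 and 0 with 10 pg, against 14, 19 and 0 with 2 pg at 4 hpf. POPDC2 had 1 and 14 counts with 10 pg, against 0 in each library with 2 pg at 4 hpf, so no size of change is given for either.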

How the results depend on the processing

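None of the 18 called genes changed direction under the 16 alternatives run. Between 10 pg and 2 pg at 5 hpf, 16 genes rose and 2 fell in the fit of all groups. The counts were 0 and 0 with the libraries of 5 hpf only, 30 and 4 with the age position as a covariate and 57 and 17 in DESeq2. The falls were 0 with all 45 columns, 1 without the 4 hpf libraries of 2 pg and 6 pg, and 0 with the replicate block within each age, which left 14 rises. Leaving out 1 library gave 3 to 18 rises and 0 to 2 falls. RPL38 and hnrnpa1a were called in none of those fits, and the 2 falls without replicate 2 of 10 pg were other genes. Between 6 pg and 2 pg (2 rises, 0 falls) there were 0 rises with 5 hpf libraries only and with the replicate block, 1 with all 45 columns, 1 without those 4 hpf libraries, 4 with the age covariate, and 14 rises and 2 falls in DESeq2. Leaving out 1 library gave 0 to 9 rises (9 without replicate 2 of 6 pg) and 0 falls. Between 10 pg and 6 pg (0 and 0) there was 1 fall with no count filter, 2 with the age covariate and 11 in DESeq2, and 0 in either direction with any library left out. The dose slope (16 and 1) gave 0 and 0 with 5 hpf libraries only, 28 and 3 with the age covariate, and 48 and 10 in DESeq2, and its fall went to 0 with library totals, with the replicate block and without the 4 hpf libraries. Leaving out 1 library gave 2 to 23 rises and 0 to 2 falls. The change between 5 and 6 hpf (0 and 0) was 1 and 1 in DESeq2 and 0 to 2 and 0 to 1 with a library left out. That between 4 and 5 hpf (1266 and 1032) was 206 to 1768 and 143 to 1279 with a library left out. The cause of these changes was not tested. Fewer libraries leave fewer degrees of freedom, and the part of that in these changes was not tested either. Deviations of same-numbered libraries of the doses had correlations of -0.15, -0.33 and 0.27 over 15265 genes (replicates 1, 2 and 3). These 3 values are of mixed sign and cannot settle whether the numbers pair the libraries. The main fit assumed no pairing, and the block result is given as an alternative. Levels under 1 CPM rest on few counts at these totals, as for dkk1b and GATA5 with 2 pg.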
